A study of Drosophila melanogaster with 30 samples.

Results

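The 44 genes described here lie on chromosome 4 of Drosophila melanogaster, the smallest autosome of the fly. They were given as a list of names, and each was looked up in the reference annotation for the build BDGP6. Of the 44, 43 matched by symbol and 1, Thd1, by its synonym Tdg, and all 44 were annotated as protein-coding genes of chromosome 4. They were 44 of the 17807 gene rows in each file and 44 of the 112 rows annotated to chromosome 4, of which 79 were protein coding. All 44 were among the 14888 genes that passed the filter on low counts.

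Nuclear RNA was sequenced from nuclei enriched from the outer photoreceptors of male flies aged 30 days, kept at 25 °C in a cycle of 12 h light and 12 h dark. All groups carried GFPKASH, a green fluorescent tag on the nuclear envelope, and Gal4, both under the promoter of Rh1, the rhodopsin of outer photoreceptors, so that knockdown was directed to Rh1-expressing cells. Gal4 drove a short hairpin RNA against 1 gene in each of 10 groups of 3 biological replicates. The control hairpin targeted LexA, which is found in bacteria and not in the fly genome. The other 9 were against dom (an ATPase that exchanges histone H2A variants), Spt5 and Spt6 (elongation factors of RNA polymerase II), Trl (the GAGA factor), Top1 (DNA topoisomerase I), cnc (a stress-response transcription factor), TH1 (a subunit of the pausing factor NELF), Cdk12 (a kinase of the polymerase tail) and Taf1 (a subunit of the basal factor TFIID). According to the title of the series, premature retinal degeneration followed knockdown of Spt5 or dom. The labels do not say how many flies made a library, and p-values measure the spread between libraries.

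Most of chromosome 4 is packaged like heterochromatin, with the protein HP1a and methylated histone H3 lysine 9 along it, yet its genes are transcribed at levels like those of other chromosomes. The histone methyltransferase eggless (egg) sets much of that methylation, and Pof is a protein that binds chromosome 4 and stimulates its genes. Many genes of chromosome 4 act in neurons, and the eye regulators ey and toy, the fly Pax6 genes, lie on it.

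Some facts of the libraries bear on what follows. Libraries held between 4064250 and 18024440 gene counts. Reads aligned to several places numbered between 59.2 and 94.5 per 100 gene counts in the 6 libraries of Spt5 and Cdk12, and between 12.8 and 33.0 in the other 24. Spt5 replicates 1 and 2 stood apart from Spt5 replicate 3 in most members described here. The genotype label of Spt5 replicate 2 names Spt6, while its title names Spt5. None of the 9 hairpin targets was called lower in its own knockdown. Transcripts of dom were at 241 to 366 CPM (gene counts scaled to a common library size) in dom libraries and 348 to 369.7 in LexA (log2 fold change −0.16, SE 0.20, edgeR adjusted p = 0.73), and those of Spt5 were at 56.1 to 64.3 CPM against 68.3 to 84.3 (−0.34, SE 0.18, adjusted p = 0.24). The Trl value was above that of LexA (0.67, SE 0.27, adjusted p = 0.13). The knockdowns are therefore named by their labels.

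The outer photoreceptor RNA of the libraries was read from 12 marker genes, all of which had passed the filter on low counts. None was at 0 in all 3 libraries of any of these groups, but neither was any tested marker of the other cell types listed below. Their presence therefore does not show identity, and the series has no sample without enrichment to compare with. The summed level of the 12 markers was 82343 to 89378 CPM in LexA. It was 55077 to 70609 CPM in dom, where 3 of 12 markers were lower, and 24345 to 66011 CPM in Spt5, where 9 of 12 were lower. Fewer nuclei of a cell type and less RNA per nucleus cannot be told apart in these bulk samples.

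Chromosome 4 as a whole took a smaller share of gene counts in dom than in any other group. Its share was 2.59%, 2.75% and 2.71% in the LexA libraries and 2.09%, 1.98% and 2.04% in the dom libraries. The other 27 libraries were all at 2.20% or above, so the dom libraries did not overlap any of them. The mean difference of dom from LexA was −0.646 percentage points, and the exact two-sided permutation test gave p = 0.1, the smallest value that 3 against 3 libraries allow. In Spt5 the share was 3.05%, 3.13% and 2.97%, a mean of 0.366 percentage points above LexA (exact p = 0.1). A share above all LexA libraries was not particular to Spt5. It was 3.04% to 3.34% in Cdk12, 3.13% to 3.23% in Taf1, 2.82% to 3.00% in Spt6 and 2.79% to 2.91% in TH1, while Top1, at 2.20% to 2.54%, lay below all LexA libraries.

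A large part of the chromosome 4 counts came from 2 members. On average over the libraries, unc-13 made up 0.747% and Cadps 0.180% of all gene counts. Without these genes the difference of dom from LexA was −0.205 percentage points and that of Spt5 was 0.559, and both groups still did not overlap LexA (exact p = 0.1 for each). Both removed genes had lower means in Spt5 than in LexA, while apolpp, a chromosome 4 gene higher in Spt5 (log2 1.37), stayed in the share. The part of apolpp in the Spt5 difference was not tested.

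**Figure D1:**
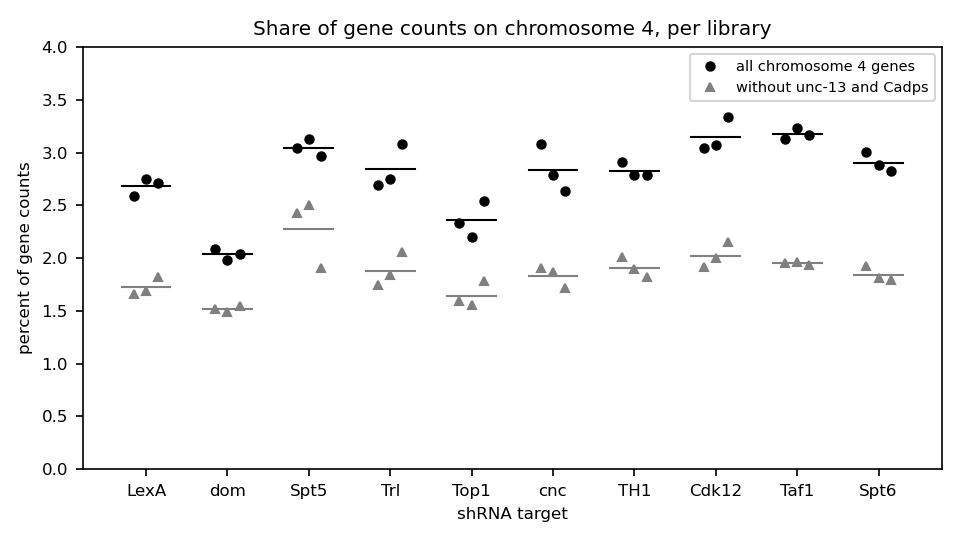
Share of each library's gene counts, in percent, that fell on chromosome 4 genes, for the 10 shRNA groups. Black points are libraries with all chromosome 4 genes and grey triangles the same libraries without unc-13 and Cadps; bars are means of 3 libraries, and the dom libraries lie at 1.98% to 2.09%, below all others.

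Levels of the members in LexA libraries differed widely per kilobase of exon. The highest were Cadps at 413 ± 38.9 CPM per kb (SD, n = 3), unc-13 at 387 ± 84.0 and CaMKI at 289 ± 9.90, followed by PMCA at 195 ± 17.1. Cadps and unc-13 did not differ beyond their spread. The lowest were Gat at 5.93 ± 0.608, sv at 4.06 ± 1.24, ci at 3.97 ± 0.404 and fuss at 1.92 ± 0.580 CPM per kb, and sv and ci did not differ beyond their spread. The genes at the top of this order were therefore those of transmitter release and calcium handling, and those at the bottom were a glial transporter and developmental regulators.

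In dom, 15 of the 44 members were lower than in LexA and 2 were higher. Of all 14888 genes tested, 6.0% were called lower and 4.37% higher. The median log2 fold change was −0.33 over the members and 0.21 over all tested genes. Since the members were abundant, the same was read among genes with an average of at least 5 log2 CPM, a limit chosen after the values were seen. At that level 15 of 40 members were lower and none higher, against 19.8% and 6.87% of 3244 genes, and the medians were −0.37 and −0.17. The limit itself left out the 2 higher members, Gat and fuss. The members and their role groups were chosen with earlier results of these data known, so their counts are not independent of that choice. Of the 9 genes of synapse and calcium handling 8 were lower and 1 higher, with a median log2 fold change of −1.18. Of 15 transcription factors and chromatin factors 3 were lower and 1 higher, of 8 signal and guidance genes none was called, and of the 4 structural and 8 housekeeping genes 2 each were lower.

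**Figure D2:**
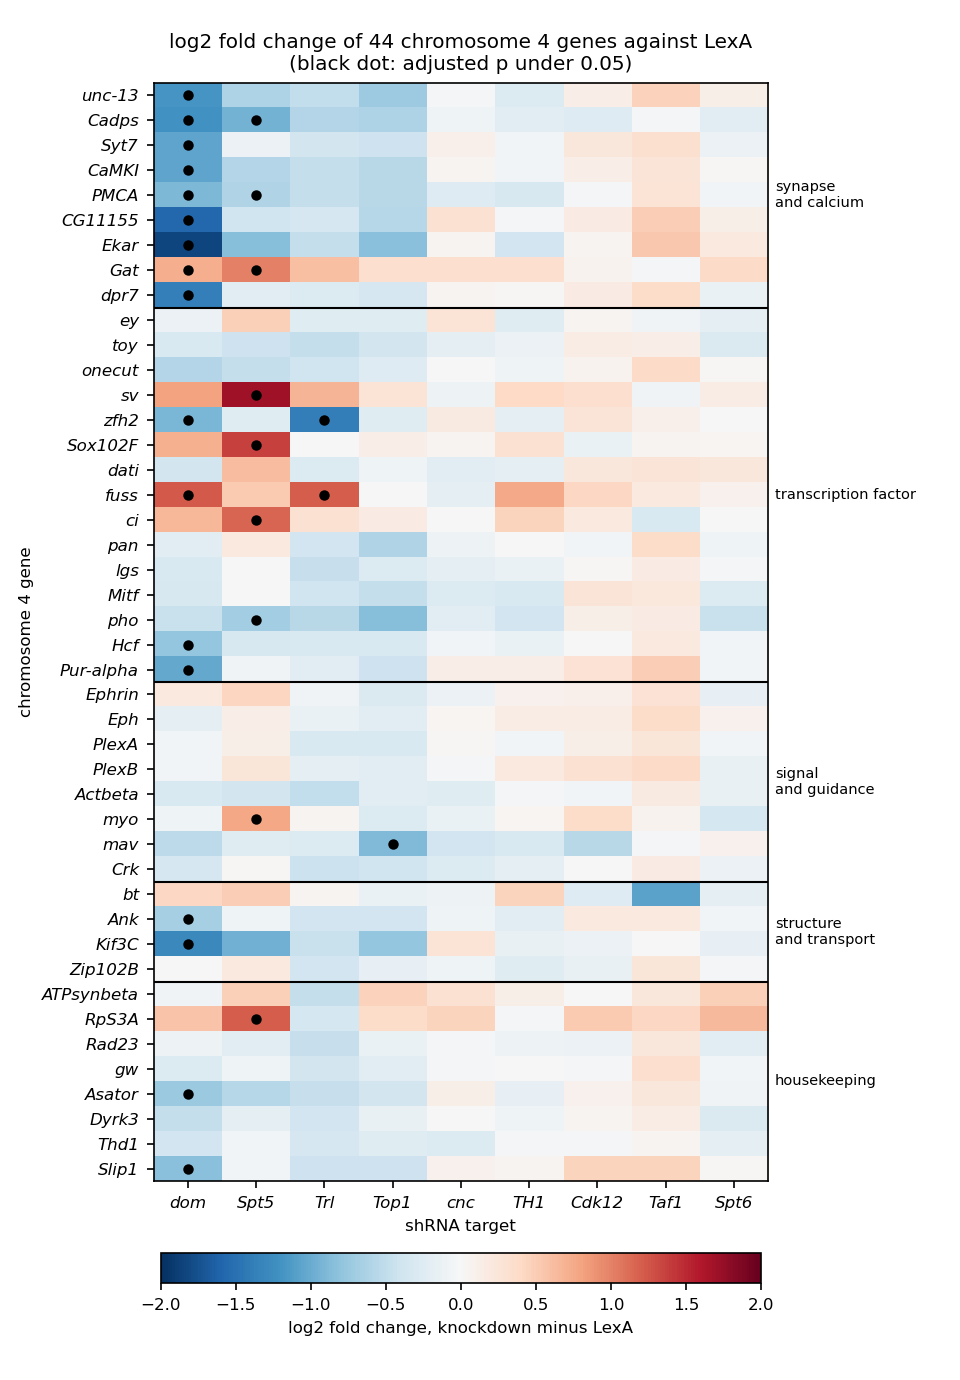
Log2 fold change of each of the 44 chromosome 4 genes (rows, grouped by role) in each knockdown against LexA (columns), from blue (lower) to red (higher), with a black dot where the edgeR adjusted p was under 0.05. The dom column holds 15 lower and 2 higher calls, and the columns of cnc, TH1, Cdk12, Taf1 and Spt6 hold none.

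Genes of the vesicle release machinery fell in dom. The gene unc-13 (FBgn0025726, chr4:867824-912331, minus strand), which primes synaptic vesicles for fusion, was at 8124, 10868 and 7222 CPM in LexA and at 3558, 4281 and 3705 CPM in dom. All dom libraries were below all LexA libraries, and unc-13 fell by 1.18 on the log2 scale (SE 0.25, adjusted p = 0.0029). Its exons overlap those of 3 antisense or pseudogene entries on the opposite strand. The strand setting of the counting is not given, so how reads in the shared bases were counted is not known.

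Cadps (FBgn0053653, chr4:1230837-1271759, plus strand), which primes dense-core vesicles, was at 2220.0, 2634 and 2279 CPM in LexA and at 938, 1136 and 1002 CPM in dom. The groups did not overlap, and the level was 2.32-fold lower in dom (log2 −1.21, SE 0.24, adjusted p = 0.0014). Syt7 (FBgn0039900, chr4:278685-306481, minus strand), a synaptotagmin that senses calcium, was at 160.5, 192 and 167 CPM in LexA and at 70.6, 96.1 and 82.8 CPM in dom. It was 2.08-fold lower (log2 −1.06, SE 0.22, adjusted p = 0.0019), again without overlap.

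The kainate-type glutamate receptor genes showed the largest falls of all members in dom. CG11155 (FBgn0039927, chr4:1126602-1137919, plus strand) encodes a receptor subunit of this type by homology. It was at 686, 912 and 685 CPM in LexA and at 230.3, 275 and 262 CPM in dom, a 2.98-fold difference (log2 −1.57, SE 0.25, adjusted p = 1.2e-04). Ekar (FBgn0039916, chr4:636131-646556, minus strand) encodes the eye-enriched kainate receptor, through which photoreceptors respond to glutamate. It was at 386, 502 and 289 CPM in LexA and at 113, 114 and 104 CPM in dom, a 3.55-fold difference (log2 −1.83, SE 0.38, adjusted p = 0.0021). For both genes the 3 dom libraries lay close together and far under the lowest LexA library.

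Genes of calcium signalling and adhesion were lower as well. CaMKI (FBgn0016126, chr4:445504-453947, plus strand), a kinase activated by calcium and calmodulin, was at 959, 1017 and 959 CPM in LexA and 389, 552 and 469 CPM in dom (log2 −1.06, SE 0.23, adjusted p = 0.0034). PMCA (FBgn0259214, chr4:328193-358917, minus strand), the pump that exports calcium through the plasma membrane, was at 1405, 1645 and 1435 CPM in LexA and 704, 895 and 813 CPM in dom (log2 −0.90, SE 0.21, adjusted p = 0.0057). The gene dpr7 (FBgn0053481, chr4:247124-253329, minus strand), a cell-surface protein with immunoglobulin domains, was at 82.3, 114 and 99.2 CPM in LexA and 35.5, 39.0 and 40.3 CPM in dom (log2 −1.37, SE 0.24, adjusted p = 4.4e-04). None of these 3 genes overlapped between the groups. PMCA shares 3107 bases of exon with Rnf11 on the opposite strand.

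Gat (FBgn0039915, chr4:629691-635350, plus strand), which takes up the transmitter GABA and is known mainly from glia, was the only synaptic member that rose in dom. It was at 15.2, 18.4 and 18.0 CPM in LexA and at 23.5, 32.6 and 29.2 CPM in dom (log2 0.73, SE 0.23, adjusted p = 0.041), with no overlap. It lost the call in 5 of the 6 fits that left out 1 library (adjusted p between 0.062 and 0.15) and kept it without dom replicate 1 (0.039). Of 9 glial marker genes 1, loco, was also higher in dom (log2 0.98), and their summed level was 366 to 611 CPM in LexA and 400.2 to 733 CPM in dom. The part of glial RNA in the Gat difference was not tested.

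**Figure D3:**
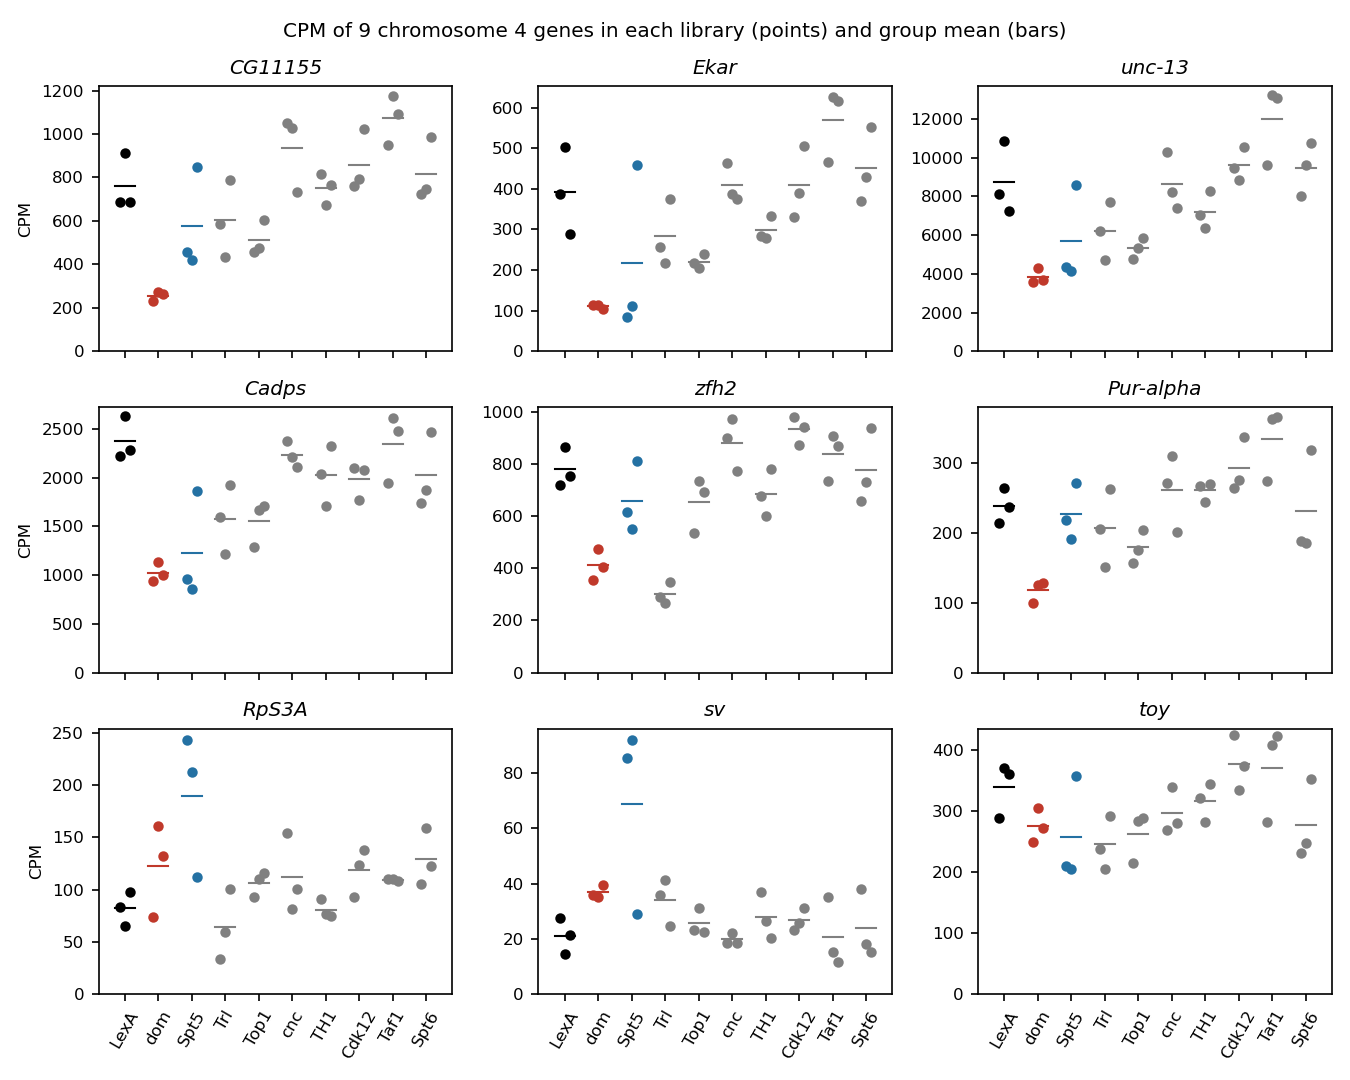
CPM of 9 chromosome 4 genes in each of the 30 libraries (points), with the mean of each group of 3 (bars), on axes that start at 0. In CG11155, Ekar, unc-13, Cadps and Pur-alpha the red dom points lie below the black LexA points, zfh2 is also low in Trl, and the blue Spt5 points split into replicates 1 and 2 and a replicate 3 that lies near LexA.

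Among the nuclear regulators, zfh2, Hcf and Pur-alpha fell in dom. The gene zfh2 (FBgn0004607, chr4:501810-540874, plus strand), a zinc-finger homeodomain factor, was at 719.6, 863 and 754 CPM in LexA and 353, 475 and 405 CPM in dom (log2 −0.92, SE 0.19, adjusted p = 0.0022). Pur-alpha (FBgn0022361, chr4:558016-567257, plus strand), which binds single-stranded nucleic acid, was at 215, 265 and 237 CPM in LexA and 100.4, 125 and 129 CPM in dom (log2 −1.02, SE 0.23, adjusted p = 0.0039). Hcf (FBgn0039904, chr4:359938-375554, plus strand), the host cell factor that joins several chromatin complexes, was at 291, 355 and 318 CPM in LexA and 168, 208 and 189 CPM in dom (log2 −0.77, SE 0.19, adjusted p = 0.008). The groups did not overlap in any of these genes.

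The gene fuss (FBgn0039932, chr4:962341-978489, minus strand), a corepressor of the Ski and Sno family and the member with the lowest level in LexA, rose in dom. It was at 7.22, 4.96 and 9.27 CPM in LexA and 18.4, 15.5 and 16.2 CPM in dom (log2 1.23, SE 0.30, adjusted p = 0.0088). Without LexA replicate 2 it was not called (log2 1.02, adjusted p = 0.087). The Pax2 gene sv and the Hedgehog effector ci also lay above all LexA libraries but were not called (log2 0.80, adjusted p = 0.21, and log2 0.67, adjusted p = 0.2).

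The remaining members called in dom had smaller or less precise changes. Kif3C, a kinesin motor, was 2.44-fold lower (log2 −1.29, SE 0.37, adjusted p = 0.023). Ank, the ankyrin that ties membrane proteins to spectrin, was lower by a log2 value of −0.66 (adjusted p = 0.037). Slip1, a partner of the potassium channel Slowpoke, was at −0.83 (adjusted p = 0.015) and the kinase Asator at −0.74 (adjusted p = 0.042). Of the 15 lower members, 10 were called in each of the 6 fits that left out 1 dom or LexA library, namely unc-13, Cadps, Syt7, CaMKI, PMCA, CG11155, Ekar, dpr7, zfh2 and Pur-alpha. The number of members called in either direction was 10 without LexA replicate 2 and 11 without dom replicate 3. Ank and Asator lost the call in each of the 6 fits.

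The direction of the low members did not rest on LexA as the reference. Against the mean of the 7 knockdowns other than Spt5, the same 15 members were lower and fuss was higher (log2 0.87, SE 0.20, adjusted p = 0.0033). Of all tested genes 6.31% were lower and 8.28% higher. Among genes with an average of at least 5 log2 CPM, 15 of 40 members were lower and none higher. At that level 20.1% of 3244 genes were lower and 13.5% higher. CG11155 was 3.02-fold lower in dom than that mean of 7 knockdowns (adjusted p = 2.4e-06), and dpr7 2.55-fold lower (adjusted p = 1.5e-05). Gat was not called in that comparison (log2 0.44, adjusted p = 0.073).

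Level and change went together among the members in dom. Across the 44 members, which share their libraries, Spearman's rho between the log2 fold change in dom and the average log2 CPM was −0.60, and over the tested genes with a position it was −0.32. With the length of the gene it was −0.15 over the members and −0.11 over those genes. The 15 lower members spanned between 6206 and 44508 bases, with a median of 15617, and the 27 that were not called spanned between 1983 and 52075, with a median of 9332.

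Outer photoreceptor RNA was also lower in dom in part. Galphaq (log2 −1.06), norpA (−1.21) and rdgC (−1.34), genes of the phototransduction cascade, were the markers called lower, and the list's median was −0.65. Rh1 itself, the gene ninaE, was at 14806 to 16577 CPM in dom and 11459.7 to 15110.0 CPM in LexA. Markers of other cells moved too. Of 13 markers of other neurons 2, ChAT (0.87) and VAChT (1.03), were higher, and of 9 cone and pigment cell markers 1, santa-maria (1.36), was higher and 2, ca (−0.78) and st (−0.97), were lower, while none of 8 inner photoreceptor, 10 muscle or 10 fat body and hemocyte markers was called. Summed levels in dom and LexA were 838 to 1452 and 637 to 871 CPM for inner photoreceptor markers, and 4817 to 6527 and 5728 to 6940.0 for other neurons. They were 3186 to 4675 and 2399.6 to 3959 CPM for muscle, 356 to 573 and 417 to 470.5 for cone and pigment cells, and 433 to 528 and 385 to 553 for fat body and hemocytes. No list had a marker at 0 in all 3 dom libraries.

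The dom libraries differed in these markers. The median log2 difference of the inner photoreceptor markers from LexA was 0.07 in dom replicate 1, 0.77 in replicate 2 and 0.72 in replicate 3, and that of the glial markers was 0.06, 0.88 and 0.73. The outer photoreceptor markers had medians of −0.86, −0.48 and −0.66 in the same libraries. Medians of the 15 lower members were −1.27, −0.84 and −1.06 there, but these members were picked for low values in dom. The part of cell loss or of RNA from other cells in the lower members was not tested. Reads outside annotated features numbered 122 per 100 gene counts in dom replicate 1, against 64.7 and 71.7 in dom replicates 2 and 3 and 79.3 to 92.4 in LexA, and the call count was 17 with that measure left out of the model and 18 with it as a covariate.

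Other genes of chromosome 4 were called in dom as well. Of 61 tested chromosome 4 genes outside the list, 7 were lower and 2 higher in dom, beside 6.0% and 4.37% of all tested genes. Of the chromosome 4 genes outside the list that averaged at least 5 log2 CPM, 7 of 28 were lower, or 25.0%. Over all of chromosome 4 it was 22 of 68 genes at that level, or 32.4%. The same share was between 17.9% and 21.8% on the arms of chromosomes X, 2 and 3. The difference between the list and the other genes of the chromosome was not tested, since the list holds genes known from earlier results.

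Among those 7 genes, the 4 with the smallest adjusted p were noncoding. The RNA lncRNA:CR44024 was at 348, 438 and 276 CPM in LexA and 135, 166 and 139 CPM in dom (log2 −1.27, adjusted p = 0.0079). The RNA lncRNA:CR43437 (log2 −1.76, adjusted p = 0.018) and asRNA:CR44027 (log2 −1.66, adjusted p = 0.01) were also lower. The RNA asRNA:CR43425 (log2 −1.16, adjusted p = 0.0073) shares 3528 bases of exon with unc-13 on the opposite strand. How reads in these shared bases were counted is not known, since the strand setting is not given. The other 3, named after their values were seen, were NfI, a nuclear factor I protein (log2 −0.75), Gyf, a GYF-domain protein (log2 −0.67), and CaMKII, a kinase of synaptic plasticity (log2 −0.71), with adjusted p between 0.031 and 0.041. The 2 genes that were higher, CG33978 (log2 0.68) and CG31997 (log2 1.04), have no named function and were likewise chosen after their values were seen.

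Genes that fell in dom lay along most of the chromosome. Of its 79 protein-coding genes 18 were lower, and 4 neighbouring pairs were lower together, namely NfI with Syt7, PMCA with Hcf, Asator with zfh2, and Gyf with unc-13. Lower genes placed in random order would also form neighbouring pairs, and whether 4 is more than that was not tested. PMCA and Hcf start head to head, 1020 bases apart. Gat and Ekar, which meet tail to tail 780 bases apart, moved in opposite directions (log2 0.73 and −1.83).

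**Figure D4:**
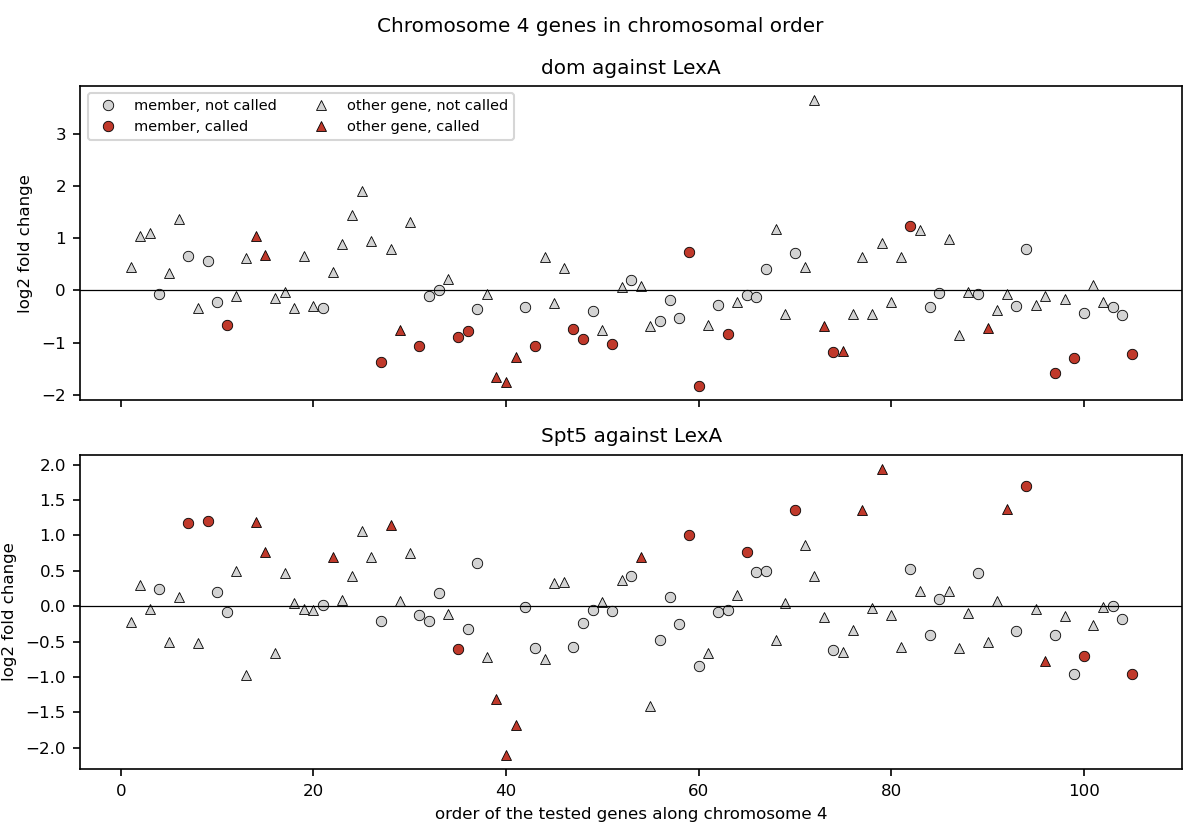
Log2 fold change of the tested chromosome 4 genes in dom (upper panel) and in Spt5 (lower panel) against LexA, in their order along the chromosome. Circles are the 44 members, triangles other genes, and red marks an edgeR adjusted p under 0.05; in dom 15 circles are red below 0 and 2 above, and in Spt5 3 below and 6 above.

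Genes that regulate chromosome 4 chromatin were examined as a list of 9. In dom, 2 of 9 were lower and none higher, beside 6.0% and 4.37% of all tested genes. The gene egg was at 32.0, 40.9 and 34.9 CPM in LexA and 16.7, 21.3 and 25.3 CPM in dom (log2 −0.77, SE 0.20, adjusted p = 0.013), and the methyltransferase G9a was at 112, 146 and 111 against 67.9, 87.9 and 83.4 CPM (log2 −0.63, SE 0.18, adjusted p = 0.026). Neither overlapped. Against the mean of the 7 other knockdowns egg was at a log2 value of −0.44 and was not called (adjusted p = 0.056). G9a (log2 −0.52, adjusted p = 0.013) and another of the 9, Su(var)3-7 (log2 −0.49, adjusted p = 0.023), were called lower there. Both were also called lower in dom against Spt5 (log2 −0.70 and −0.61, adjusted p = 0.014 and 0.042). In dom against LexA Su(var)3-7 was not called (log2 −0.56, adjusted p = 0.056). Pof (log2 −0.05, SE 0.31, adjusted p = 0.95) and the gene of HP1a (FBgn0003607; log2 −0.04, SE 0.26, adjusted p = 0.96) were not called. None of the 9 was called in Spt5 or Trl. Pof had a log2 value of −0.14 in Spt5 and 0.13 in Trl, and the HP1a gene had 0.33 and −0.37. The part of these regulators in the levels of the members was not tested.

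In Spt5, 6 members were higher and 3 lower, beside 11.0% and 5.42% of all tested genes. The median log2 fold change was −0.06 over the members and 0.05 over all genes. Among genes with an average of at least 5 log2 CPM, 3 of 40 members were higher and 3 lower, beside 19.0% and 16.1% of 3244 genes, and the medians were −0.08 and −0.10. The calls depended on Spt5 replicates 1 and 2. Without replicate 1 no member was called, without replicate 2 only Gat was, and without replicate 3 it was 19, of which 9 were higher and 10 lower. With LexA libraries left out 1 at a time the count was 6 or 8. Against Cdk12, whose libraries share the high number of multiply aligned reads, 4 members were called, and in a fit of the 6 Spt5 and LexA libraries alone none was, while 15 were called by DESeq2.

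The members that rose in Spt5 were mostly of low level in LexA. The gene sv, the Pax2 gene of cone and bristle cells (FBgn0005561, chr4:1088798-1113317, plus strand), was at 27.4, 14.5 and 21.5 CPM in LexA and 85.5, 92.2 and 29.0 CPM in Spt5 (log2 1.70, SE 0.39, adjusted p = 0.005). Replicate 3 was just above the highest LexA library. Gat was at 44.2, 39.7 and 19.4 CPM in Spt5 (log2 1.00, SE 0.23, adjusted p = 0.005), all above LexA. Sox102F, a SoxD factor (FBgn0039938, chr4:800436-834393, minus strand), was at 24.9, 34.5 and 25.2 CPM in LexA and 115, 79.4 and 23.4 CPM in Spt5 (log2 1.36, SE 0.35, adjusted p = 0.0088). Its replicate 3 was below all LexA libraries.

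The gene ci, the effector of Hedgehog signalling (FBgn0004859, chr4:47710-57041, minus strand), was at 24.4, 23.0 and 19.9 CPM in LexA and 58.0, 72.3 and 21.3 CPM in Spt5 (log2 1.17, SE 0.32, adjusted p = 0.012). The gene myo, a ligand of the TGF-beta family (FBgn0026199, chr4:690686-696055, minus strand), was at 42.1, 47.3 and 42.4 against 91.4, 83.7 and 49.9 CPM (log2 0.77, SE 0.20, adjusted p = 0.01). RpS3A, a protein of the small ribosomal subunit (FBgn0017545, chr4:65225-67207, minus strand), was at 83.6, 64.8 and 98.0 against 244, 213 and 112 CPM (log2 1.21, SE 0.32, adjusted p = 0.011). The genes myo and RpS3A did not overlap between the groups, and ci did.

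The members that fell in Spt5 were Cadps, PMCA and pho. Cadps was at 963, 859.9 and 1859 CPM in Spt5, all below LexA (log2 −0.95, SE 0.24, adjusted p = 0.0075). The gene pho, which binds Polycomb response elements (FBgn0002521, chr4:1172469-1181628, minus strand), was at 118, 169 and 162 CPM in LexA and 72.8, 81.2 and 122 CPM in Spt5 (log2 −0.70, SE 0.24, adjusted p = 0.043), with replicate 3 inside the LexA range. PMCA was at a log2 value of −0.60 (SE 0.21, adjusted p = 0.045).

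Markers of other cells moved in Spt5 with these members. Of the listed genes, 8 of 13 markers of other neurons, 5 of 9 of glia and 7 of 8 of inner photoreceptors were higher. So were 6 of 9 of cone and pigment cells and 4 of 10 of fat body and hemocytes, while none of 10 muscle markers was called. In Spt5 replicates 1, 2 and 3 the median log2 difference from LexA was 1.38, 1.19 and −0.06 for glial markers. It was 1.63, 1.49 and 0.25 for inner photoreceptors and 1.55, 1.32 and 0.16 for other neurons. For cone and pigment cells it was 1.87, 1.54 and 0.05, and for fat body and hemocytes 0.19, 1.55 and 0.06. Summed levels were 770.0 to 2633 CPM for inner photoreceptor markers, against 637 to 871 CPM in LexA, 420.0 to 959.5 CPM for glial markers, against 366 to 611, and 455 to 1154 CPM for cone and pigment cell markers, against 417 to 470.5. The summed level of the other neuron markers was 3583 to 4813 CPM, against 5728 to 6940.0 in LexA, and 1 of them, brp, was lower (log2 −0.98). None of these markers was at 0 in all 3 Spt5 libraries. The part of RNA from such cells in the 6 higher members was not tested.

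In Spt5 the chromosome 4 share was above LexA, as it was in Cdk12, Taf1, Spt6 and TH1, but the sum of the members overlapped LexA. The 44 members together took 2.01%, 2.07% and 2.39% of gene counts in Spt5 and 2.06% to 2.25% in LexA, against 2.42% to 2.67% in Cdk12 and 2.52% to 2.64% in Taf1. Of the other 61 chromosome 4 genes tested, 8 were higher and 4 lower, beside 11.0% and 5.42% of all tested genes. With an average of at least 5 log2 CPM, 4 of 28 were higher and 3 lower, beside 19.0% and 16.1% of 3244 genes. The gene apolpp, the precursor of the circulating fat carrier, was at 4205, 4185 and 1339 CPM in Spt5 and 1394, 1006 and 1358 CPM in LexA (log2 1.37, adjusted p = 0.0051). The glutamate receptor gene mGluR was at 104, 88.0 and 17.2 against 22.0, 17.4 and 15.2 CPM (log2 1.94, adjusted p = 0.0039), and RhoGAP102A was also higher (log2 1.14, adjusted p = 0.017). The genes lower in Spt5 were lncRNA:CR43437 (log2 −2.10), lncRNA:CR44024 (−1.67), asRNA:CR44027 (−1.31) and Arf4 (−0.77), of which the 3 noncoding genes were lower in dom too. The comparisons of dom and Spt5 with LexA share their control libraries.

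The direct test of dom against Spt5 does not use LexA. In it 9 members were lower in dom and none higher, beside 3.43% and 4.76% of all genes. Among genes with an average of at least 5 log2 CPM, 9 of 40 members were lower and none higher. At that level 9.28% of 3244 genes were lower and 9.68% higher. CG11155 (log2 −1.17, SE 0.25, adjusted p = 0.0025), dpr7 (−1.16, SE 0.24, adjusted p = 0.002), Syt7 (−0.93, SE 0.21, adjusted p = 0.0056), Pur-alpha (−0.95, SE 0.22, adjusted p = 0.0073), zfh2 (−0.68, SE 0.19, adjusted p = 0.024) and Slip1 (−0.78, SE 0.22, adjusted p = 0.025) were called lower than LexA in dom as well. The zinc-finger gene dati (−0.97, SE 0.22, adjusted p = 0.0053), myo (−0.87, SE 0.20, adjusted p = 0.0063) and ey (−0.60, SE 0.17, adjusted p = 0.028) were not. The gene dati was at 70.9, 91.3 and 106 CPM in dom and 215, 195 and 117 CPM in Spt5. In a fit of these 6 libraries alone none of the 9 was called. The genes unc-13, Cadps, CaMKI, PMCA and Ekar were lower in dom than in LexA but were not called between dom and Spt5.

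In Trl, zfh2 was lower and fuss higher, beside 1.91% and 0.631% of all tested genes. The gene zfh2 was at 288, 265 and 346 CPM in Trl, below every LexA library and also below every dom library (log2 −1.38, SE 0.19, adjusted p = 1.2e-04). It was called in every alternative run for that comparison. Its exons overlap those of Thd1 on the opposite strand over 2325 bases, and Thd1, a thymine DNA glycosylase, was at 443, 345 and 498 CPM in Trl and 497, 629 and 497 CPM in LexA and was not called. The gene fuss was at 16.0, 20.7 and 12.9 CPM in Trl (log2 1.21, SE 0.31, adjusted p = 0.039), but was not called without LexA replicate 1 or 2 or Trl replicate 1 or 2. The members' median was −0.38 and that of all genes 0.21. Among genes with an average of at least 5 log2 CPM the medians were −0.38 for 40 members and −0.47 for 3244 genes. Scaling with RLE size factors moved the median of all genes by 0.17.

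In Top1, mav, a TGF-beta ligand (FBgn0039914, chr4:623219-626031, minus strand), was the only member called. It was at 50.9, 71.9 and 45.2 CPM in LexA and 25.1, 30.4 and 36.0 CPM in Top1, without overlap (log2 −0.88, SE 0.19, adjusted p = 0.027), beside 0.249% of all genes lower. It was not called without LexA replicate 1 or 2 or Top1 replicate 1 or 2. Many more members were low in every Top1 library without a call. In 19 members all 3 Top1 libraries were below all 3 LexA libraries, beside 8.88% of all tested genes. All 19 had an average of at least 5 log2 CPM, where the share was 20.9%. In dom this held for 19 members as well, beside 13.3% of all genes and 35.7% at that level. Members with this pattern in Top1 included unc-13 at 4755, 5334 and 5874 CPM (log2 −0.72), Ekar at 218, 204 and 239.9 CPM (log2 −0.83) and pho at 60.4, 85.3 and 103 CPM (log2 −0.85). The members' median in Top1 was −0.29, and that of all genes was −0.01. At an average of at least 5 log2 CPM the medians were −0.31 for 40 members and −0.12 for 3244 genes. The most abundant marker, ninaE, was at 22694 to 31477 CPM in Top1 and 11459.7 to 15110.0 CPM in LexA (log2 0.97, called higher), and its part in the lower shares of other genes was not tested.

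In cnc, TH1, Cdk12, Taf1 and Spt6 no member was called by edgeR in the fit of all 30 libraries or by DESeq2. Few genes were called in these comparisons at all, with 0.289%, 0.202%, 0.195%, 0.148% and 0.107% of the tested genes in either direction. At an unadjusted p under 0.05 the members numbered 1, 1, 1, 3 and 0 in that order, beside 7.50%, 4.74%, 6.68%, 5.53% and 7.35% of all tested genes. The lowest log2 value of any member was that of bt in Taf1 (−1.07, SE 0.38, adjusted p = 0.54), which was called only when the 6 Taf1 and LexA libraries were fitted alone. The gene bt encodes projectin, a giant protein of muscle, and the summed level of 10 muscle markers was 1368 to 1671 CPM in Taf1 against 2399.6 to 3959 CPM in LexA. The highest was that of fuss in TH1 (0.75, adjusted p = 0.87).

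Of the 44 members, 20 were called in none of the 9 comparisons with LexA. They held 7 of the 15 transcription factors, namely the Pax6 genes ey and toy, the homeodomain gene onecut, dati, the Wnt effectors pan and lgs, and Mitf, a regulator of lysosomal genes. They held 6 of the 8 signal genes, namely Ephrin and its receptor Eph, the semaphorin receptors PlexA and PlexB, the activin Actbeta and the adaptor Crk. The others were bt, the zinc transporter Zip102B, the ATP synthase subunit ATPsynbeta, the repair and proteasome factor Rad23, the microRNA effector gw, the kinase Dyrk3 and Thd1.

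The eye regulators were not called in any knockdown against LexA. The gene ey was at 51.7 to 57.2 CPM in LexA, 41.4 to 57.6 in dom and 53.8 to 90.6 in Spt5. In Trl it was at 41.9 to 48.9 CPM, in Top1 at 43.1 to 46.0, in cnc at 58.8 to 72.9 and in TH1 at 38.7 to 53.5, and it was at 55.5 to 56.2 in Cdk12, 47.0 to 55.2 in Taf1 and 42.1 to 49.8 in Spt6. Its log2 fold change in Spt5 was 0.48 (SE 0.18, adjusted p = 0.058), again with replicates 1 and 2 high.

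The gene toy was more abundant, at 288 to 370.0 CPM in LexA, 249 to 304 in dom and 204 to 357 in Spt5. It was at 245 ± 43.9 CPM (SD, n = 3) in Trl, and at 214 to 288 in Top1, 269 to 339 in cnc, 282 to 344 in TH1, 335 to 424 in Cdk12, 281 to 422 in Taf1 and 231 to 352 in Spt6. Its group means ran from 245 CPM in Trl to 377 CPM in Cdk12, and most neighbours in that order overlapped.

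The gene onecut, known in flies from photoreceptor and neuron differentiation, was at 589 to 854 CPM in LexA and 355 to 542 in dom. These groups did not overlap, but the gene was not called (log2 −0.59, SE 0.26, adjusted p = 0.16). It was at 399 to 633 CPM in Spt5, 348 to 651 in Trl, 493 to 657 in Top1, 537 to 877 in cnc, 565 to 713 in TH1, 694 to 801 in Cdk12, 675 to 1054 in Taf1 and 505 to 931 in Spt6.

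The housekeeping genes RpS3A and ATPsynbeta were not called in dom. RpS3A was at 64.8 to 98.0 CPM in LexA and 73.7 to 161 in dom (log2 0.57, SE 0.32, adjusted p = 0.3). Its ranges were 112 to 244 CPM in Spt5, 33.0 to 101 in Trl, 92.5 to 116 in Top1, 81.0 to 154 in cnc, 74.7 to 90.7 in TH1, 93.2 to 138 in Cdk12, 108 to 110.2 in Taf1 and 105 to 159 in Spt6. ATPsynbeta was at 100.3 to 114 CPM in LexA and 69.3 to 128 in dom (log2 −0.07, SE 0.26, adjusted p = 0.93). Its ranges were 97.7 to 188 CPM in Spt5, 54.2 to 109 in Trl, 114 to 179 in Top1, 105 to 157 in cnc, 106 to 136 in TH1, 95.2 to 122 in Cdk12, 109 to 145 in Taf1 and 122 to 189.9 in Spt6.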

How the data were processed

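Per the labels' protocols, libraries were made from 10 ng of nuclear RNA with depletion of fly ribosomal RNA. Per the submitters' processing notes, the authors used Trimmomatic 0.39, HISAT2 and HTSeq with the build BDGP6, and the deposited values are whole-number counts of reads per gene. The strand setting and annotation release are not given in the sources used here. Groups were taken from sample titles, since the genotype labels of 6 groups count upward over replicates; that of Spt5 replicate 2 therefore names Spt6, another group, and that of Spt5 replicate 3 names Spt7.

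The 44 members, the role groups and the marker lists were chosen with earlier results of these data known. Counts of 30 libraries were fitted together with edgeR 4.0.16 in R 4.3.3, with 1 mean per group, TMM scaling and edgeR's filter by expression (minimum count 10, minimum total 15), which left 14888 genes. Neither the 5 summary rows of each file nor its rows for transgenes, at most 4, entered library sizes or tests. Reads outside annotated features, one of those summary rows, came to 55.4 to 172 per 100 gene counts. The two-sided quasi-likelihood F test with 20 residual degrees of freedom compared each knockdown with LexA, dom with Spt5, and dom with the mean of the 7 knockdowns other than Spt5. Benjamini-Hochberg adjustment ran over all tested genes of a comparison, with calls at an adjusted p under 0.05. SE is the absolute log2 fold change over the square root of F, and CPM uses TMM library sizes. The script was tested on simulated data. Reads carry no molecular identifiers, so depth gives a precision for counting error only.

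Every member is named. Values per library are given for up to 12 members with the smallest adjusted p among those called in dom, 8 in Spt5, 4 in Trl and 3 in each other comparison. The levels of ey, toy, onecut, RpS3A and ATPsynbeta are given in every group. Chromosome 4 genes outside the list are named by the 4 smallest adjusted p in each direction among those averaging 3 log2 CPM or more and bearing a symbol other than a bare CG or CR number. Alternatives were RLE scaling, no filter, the replicate number as a block, reads outside features as a covariate, only the groups compared, leaving out each library, DESeq2 1.42.0 and other references.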

Additional observations from a re-analysis of the deposited data

How the results depend on the processing

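The 15 members lower in dom were called in every alternative that kept all libraries, that is RLE scaling, no filter, the replicate block, the covariate, the fit of the 6 libraries alone, DESeq2 and the 7-knockdown reference. With 1 library left out, the members called numbered 10 to 14 in dom, 0 to 19 in Spt5, 1 to 2 in Trl, 0 to 1 in Top1, 0 in cnc, TH1, Cdk12, Taf1 and Spt6, 6 to 13 in dom against Spt5 and 12 to 14 in dom against the 7 knockdowns. The other chromosome 4 genes called numbered 0 to 7 in dom (0 without LexA replicate 2, 1 without dom replicate 2 or 3) and 1 to 19 in Spt5 (1 without replicate 1). The difference in chromosome 4 share stayed between −0.692 and −0.612 percentage points in dom and between 0.32 and 0.406 in Spt5.

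Counts moved by over 1.5 times as follows, and the cause was not tested. For the 9 other chromosome 4 genes called in dom, the 7-knockdown reference gave 15, the fit of the 6 libraries alone 17 and DESeq2 15. For the 9 members called in Spt5, Cdk12 as the reference gave 4, the fit of the 6 libraries alone 0 and DESeq2 15. For the 12 other genes in Spt5, Cdk12 gave 7 and the fit of the 6 libraries alone 0. For the 2 members in Trl, the covariate gave 1 and DESeq2 3. For mav in Top1, no filter and the fit of the 6 libraries alone gave 0 calls and DESeq2 gave 3. For Taf1 the fit of the 6 libraries alone gave 1 call, and for dom against Spt5 it gave 0 of 9. No direction of a called result reversed. Depth limits the low members, of which fuss had 4.96 to 9.27 CPM in LexA.

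Same-numbered libraries did not deviate together in every pair (for dom and LexA the correlations were 0.107, 0.253 and −0.094). With 3 libraries a group this does not settle whether the numbers pair the samples, and the main fit treated them as unpaired. The replicate block gave 17 members in dom, 12 in Spt5, 2 in Trl, 9 in dom against Spt5 and 17 in dom against the 7 knockdowns.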
